A study of Mus musculus with 8 samples.

Results

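The pericentral Wnt target genes described here are 10 genes, Axin2, Nkd1, Sp5, Lgr5, Rnf43, Znrf3, Tbx3, Lhpp, Rhbg and Slc1a2. They were taken as a named list and found by symbol, as 10 of the 33212 gene rows of a count table of mouse liver RNA. Each had enough counts to be tested, among 15291 genes tested in all.

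The study asked what the loss of Nnmt, which encodes nicotinamide N-methyltransferase, in hepatocytes does to the liver under a harmful diet. RNA was sequenced from the livers of 4 Nnmt LKO mice and 4 control mice, with 1 library per mouse. All were male mice fed for 8 weeks on a diet without methionine and choline (MCD diet), and the labels give the strain as C57BL/6 and no age. The Nnmt LKO mice carried Alb-Cre, which is active in hepatocytes, and a floxed Nnmt gene, so that the other cells of the liver were not targeted. The study's text names floxed mice as controls for this line, while the labels of these controls read WT. No mice on another diet, and none with Cre alone, entered the comparison.

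In the adult liver lobule, endothelial cells around the central vein secrete Wnt ligands and R-spondin. In the neighbouring hepatocytes these stabilise beta-catenin, which enters the nucleus and works with TCF/LEF factors to switch on genes of nitrogen and drug metabolism. Part of the targets restrain the pathway in turn, so their level is often used as a readout of Wnt activity. A whole-liver library mixes all zones, so the place of each transcript in the lobule was not measured, and fewer cells of a type cannot be told apart from less RNA per cell.

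Total counts per library ran from 75020072 to 87934362, and values are CPM, counts scaled to the library total, after scaling by TMM, edgeR's trimmed mean of M-values. Libraries are lettered a to d within a genotype. Library a of Nnmt LKO stood apart, with a TMM factor of 1.21 against 0.876 to 1.06 in the other libraries. It also had the lowest value of all libraries for 4 of the 10 Wnt targets. For this reason the gene lists below are also given from a fit of the other 7 libraries, and genes that enter a count only there were named after their values were seen.

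The deleted gene was examined first, as a check of the labels. Nnmt (ENSMUSG00000032271) was at 31.8, 44.8, 68.9 and 83.0 CPM in Nnmt LKO libraries a to d and at 112, 224, 134 and 84.9 CPM in control libraries a to d. Every Nnmt LKO library lay below every control library, although library d of each genotype had nearly the same value. The log2 fold change, taken throughout as Nnmt LKO minus control, was -1.28 (standard error, SE, 0.33, edgeR adjusted p = 0.123), and DESeq2 gave an adjusted p of 0.00458, with a range over all alternatives from 0.00458 to 0.296. The directions below are therefore those between libraries labelled Nnmt LKO and control.

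Axin2 and Lhpp were lower and Slc1a2 was higher in Nnmt LKO livers, and for these 3 of the 10 Wnt targets the libraries of the genotypes did not overlap. The share of all tested genes without overlap was 8.16%, with 3.34% higher and 4.81% lower in Nnmt LKO. The same 3 genes reached an unadjusted p under 0.05 by edgeR, a level that 12.6% of all tested genes reached, 5.45% higher and 7.13% lower. At an adjusted p under 0.05, edgeR called 0 of the 10 targets, limma called 0 and DESeq2 called 1, Slc1a2. For all tested genes the shares called were 0.32% by edgeR and 3.35% by DESeq2. Log2 fold changes lay below 0 for 7 of the 10 targets, compared with 47.7% of all tested genes. The median over the 10 targets was -0.24, where that over all tested genes was 0.02. Without library a of Nnmt LKO the median was -0.18, with 6 targets below 0 and 4 at an unadjusted p under 0.05, Lgr5 being the added one. Over all tested genes, 50.3% lay below 0 and 13.3% were at an unadjusted p under 0.05 in that fit. The share of all tested genes at that p ran from 8.13% to 14.2% over the fits that left out 1 library.

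**Figure D1:**
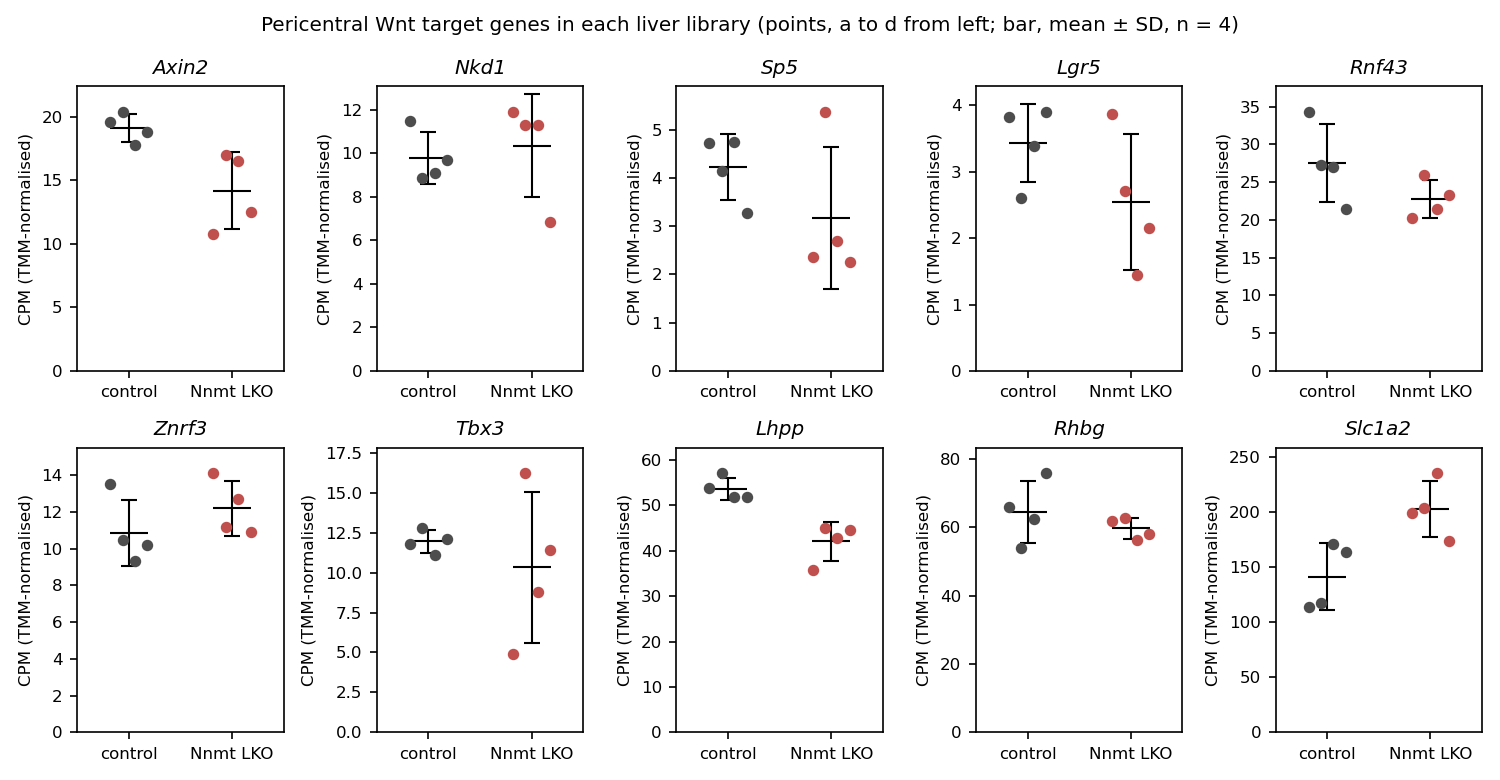
Normalised level of the 10 Wnt targets in each library, with CPM on the vertical axis of each panel starting at 0, points for the libraries (a to d from left to right) and bars for the mean ± SD of 4 libraries per genotype. The groups are separate for Axin2 (10.8 to 17.0 CPM in Nnmt LKO, 17.8 to 20.4 CPM in control), Lhpp and Slc1a2, and they overlap in the other panels.

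Among the targets that restrain the pathway inside the cell is Axin2 (ENSMUSG00000000142), a scaffold of the complex that breaks down beta-catenin. It was at 10.8, 17.0, 16.5 and 12.5 CPM in Nnmt LKO libraries a to d and at 19.6, 20.4, 17.8 and 18.8 CPM in control libraries a to d. All Nnmt LKO values were lower than all control values, with the closest pair at 17.0 and 17.8 CPM, and libraries a and d of Nnmt LKO were farthest from the controls. The mean was 14.2 ± 3.04 CPM in Nnmt LKO and 19.1 ± 1.12 CPM in control (SD, n = 4 each). The estimated log2 fold change was -0.43 (SE 0.15, 95% interval -0.76 to -0.10), and the edgeR adjusted p was 0.261 (0.0157 unadjusted). With 1 library left out the log2 fold change ran from -0.53 (without library b of Nnmt LKO) to -0.32 (without library a).

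Nkd1 (ENSMUSG00000031661), which encodes an antagonist that binds Dishevelled, showed no such separation. Its level was 11.9, 11.3, 11.3 and 6.82 CPM in Nnmt LKO libraries a to d and 11.5, 8.87, 9.08 and 9.69 CPM in control libraries a to d. Library d of Nnmt LKO was the lowest of all, whereas the other 3 libraries of that genotype were close to the highest control. The log2 fold change of 0.08 (SE 0.18, 95% interval -0.32 to 0.48) came with an edgeR adjusted p of 0.891. That log2 fold change was 0.00 without library a of Nnmt LKO and 0.23 without library d.

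The transcription factor gene Sp5 (ENSMUSG00000075304), a direct Wnt target in many tissues, was weakly expressed, with 162 to 433 counts per library. It was at 2.36, 5.37, 2.70 and 2.26 CPM in Nnmt LKO libraries a to d and at 4.72, 4.15, 4.74 and 3.28 CPM in control libraries a to d. In Nnmt LKO, library b was the highest of all 8 and the other 3 libraries lay below every control. The log2 fold change was -0.41 (SE 0.28, 95% interval -1.03 to 0.21) and its edgeR adjusted p was 0.578. With library b of Nnmt LKO left out the log2 fold change was -0.79, and with library d left out -0.28. The fit without library b was the only alternative with an unadjusted p under 0.05 (0.00345 by edgeR, adjusted p = 0.204).

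At the cell surface, Lgr5 encodes a receptor for R-spondins, and the ubiquitin ligases Rnf43 and Znrf3 remove Frizzled receptors unless R-spondin holds them back. Lgr5 (ENSMUSG00000020140) was at 3.87, 2.71, 1.44 and 2.15 CPM in Nnmt LKO libraries a to d and at 3.82, 2.61, 3.38 and 3.90 CPM in control libraries a to d. Libraries c and d of Nnmt LKO were below every control, while library a was level with the highest controls. Between genotypes, the log2 fold change was -0.43 (SE 0.28, 95% interval -1.05 to 0.19), and the edgeR adjusted p was 0.563. Leaving out library a of Nnmt LKO gave a log2 fold change of -0.71, the only alternative with an unadjusted p under 0.05 (0.0169), and leaving out library c gave -0.23.

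Rnf43 (ENSMUSG00000034177) was at 20.2, 25.9, 21.5 and 23.3 CPM in Nnmt LKO libraries a to d and at 34.3, 27.3, 27.0 and 21.5 CPM in control libraries a to d. Library d of the controls lay among the Nnmt LKO libraries and the other 3 controls above them all. This gave a log2 fold change of -0.28 (SE 0.14, 95% interval -0.59 to 0.04, edgeR adjusted p = 0.454). Leaving out library a of the controls brought the log2 fold change to -0.13, and leaving out their library d to -0.38, where the unadjusted p was under 0.05. Znrf3 (ENSMUSG00000041961) was at 14.1, 11.2, 12.7 and 10.9 CPM in Nnmt LKO libraries a to d and at 13.5, 10.5, 9.33 and 10.2 CPM in control libraries a to d. The lowest 3 values were from controls, but library a of the controls was the second highest of the 8. Its log2 fold change was 0.17 (SE 0.15, 95% interval -0.16 to 0.49, edgeR adjusted p = 0.676), and the same was 0.09 without library a of Nnmt LKO and 0.31 without library a of the controls. These related ligase genes thus had estimates of opposite sign, each with an interval that included 0, and the difference between them was not tested.

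Tbx3 (ENSMUSG00000018604), a T-box repressor active in pericentral hepatocytes, varied widely between Nnmt LKO libraries. It was at 4.91, 16.2, 8.81 and 11.4 CPM in Nnmt LKO libraries a to d and at 11.8, 12.8, 11.1 and 12.1 CPM in control libraries a to d. The controls fell within a narrow range, and the Nnmt LKO values spread below and above it. The coefficient of variation was 45.8% in Nnmt LKO and 5.91% in control. The log2 fold change of -0.21 (SE 0.28, 95% interval -0.82 to 0.40, edgeR adjusted p = 0.79) rested on library a, without which it was 0.02, and it was -0.52 without library b.

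The remaining 3 targets belong to hepatocyte metabolism. Lhpp (ENSMUSG00000030946) encodes a phosphatase that acts on phosphohistidine. It was at 35.8, 44.9, 42.7 and 44.6 CPM in Nnmt LKO libraries a to d and at 53.7, 57.0, 51.7 and 51.8 CPM in control libraries a to d. The groups were clear of each other, with the highest Nnmt LKO library at 44.9 CPM and the lowest control at 51.7 CPM, and library a of Nnmt LKO was the lowest. The mean was 42.0 ± 4.23 CPM in Nnmt LKO and 53.6 ± 2.44 CPM in control (SD, n = 4 each). The log2 fold change was -0.35 (SE 0.10, 95% interval -0.58 to -0.12), and the edgeR adjusted p was 0.18 (0.00571 unadjusted). In DESeq2 the adjusted p was 0.0566, and it ran from 0.0566 to 0.465 over the alternatives. With 1 library left out the log2 fold change ran from -0.38 (without library b of Nnmt LKO) to -0.28 (without library a).

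Lhpp lies on chromosome 7, from 132610638 to 132706420 on the plus strand (GENCODE M21, GRCm38), in a stretch where many genes were lower in Nnmt LKO. Of the 68 other tested genes that start within 5 Mb of it, 55 had a log2 fold change below 0, and their median was -0.26. Among them, 38.2% had a lower log2 fold change than Lhpp. Of the 3 tested genes on each side whose starts are nearest to its own, Cpxm2, Chst15 and Oat start before it, and Gm15582, Fam53b and Mettl10 start after it. Gm15582 lies inside Lhpp on the other strand. Chst15 was higher in Nnmt LKO, with a log2 fold change of 0.39 (unadjusted p = 0.0198, edgeR adjusted p = 0.286). The log2 fold changes were 0.58 for Cpxm2, -0.24 for Oat, -0.82 for Gm15582, 0.23 for Fam53b and -0.25 for Mettl10, with unadjusted p from 0.0744 to 0.462. The nearest genes thus lay on both sides of 0. Over all of chromosome 7 the median of 1154 tested genes was -0.14, and over the 13992 on every other chromosome it was 0.03. The part of this regional difference in the value of Lhpp was not tested.

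**Figure D2:**
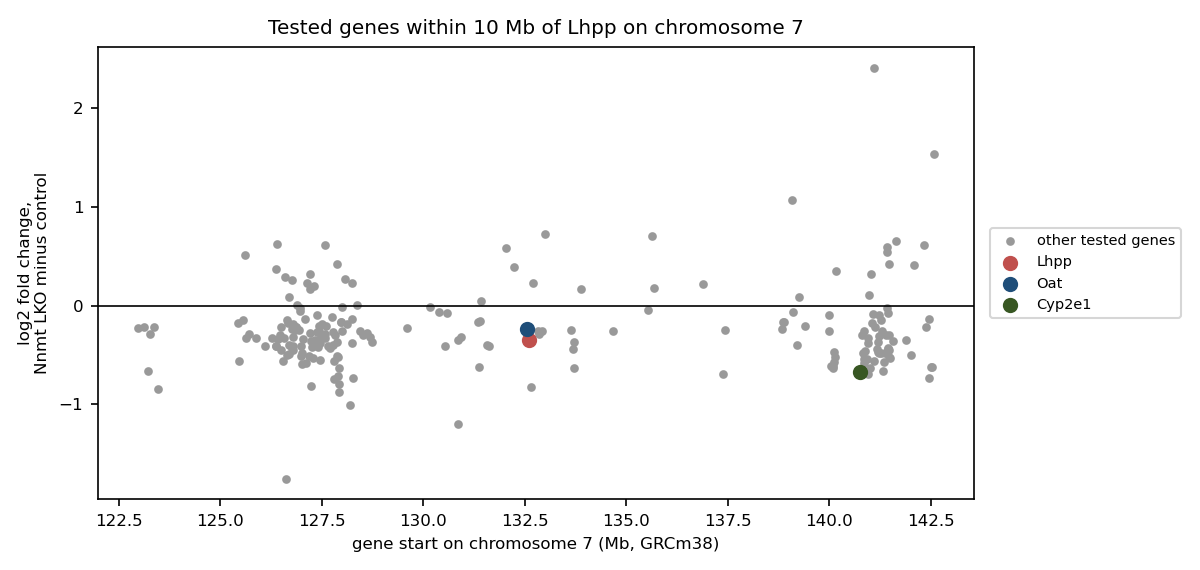
Log2 fold change (Nnmt LKO minus control, vertical axis) of each of the 220 tested genes that start within 10 Mb of Lhpp, against the gene's start on chromosome 7 in Mb (horizontal axis), with grey points for genes other than Lhpp, Oat and Cyp2e1. Of the 220 genes, Lhpp included, 182 lie below 0, and Lhpp at -0.35 lies within their spread.

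Rhbg (ENSMUSG00000001417), which encodes an ammonium transporter of pericentral hepatocytes, was at 61.7, 62.7, 56.1 and 58.1 CPM in Nnmt LKO libraries a to d and at 65.8, 53.8, 62.3 and 75.7 CPM in control libraries a to d. The 4 Nnmt LKO values fell inside the wider range of the controls. Its log2 fold change was -0.11 (SE 0.12, 95% interval -0.36 to 0.14, edgeR adjusted p = 0.733), and that log2 fold change ran from -0.18 without library b of the controls to -0.02 without their library d. Slc1a2 (ENSMUSG00000005089), the gene of a glutamate transporter, differed in the other direction. It was at 199, 204, 235 and 174 CPM in Nnmt LKO libraries a to d and at 114, 117, 171 and 164 CPM in control libraries a to d. Every Nnmt LKO library was above every control, but only just for library d of Nnmt LKO against library c of the controls, and the controls formed a low pair and a high pair. The mean was 203 ± 25.5 CPM in Nnmt LKO and 141 ± 30.1 CPM in control (SD, n = 4 each). On the log2 scale the difference was 0.52 (SE 0.16, 95% interval 0.17 to 0.87), and the edgeR adjusted p was 0.2 (0.00779 unadjusted). In DESeq2 the adjusted p of Slc1a2 was 0.049, and over the alternatives it ran from 0.049 to 0.503. With 1 library left out the log2 fold change ran from 0.44 (without library c of Nnmt LKO) to 0.62 (without library c of the controls).

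Per kilobase of annotated exon, the level in control livers was highest for Rhbg at 33.2 CPM per kb, followed by Lhpp at 22.2, Slc1a2 at 10.8, Rnf43 at 4.20, Axin2 at 3.48, Nkd1 at 2.15, Sp5 at 2.01, Tbx3 at 1.80, Znrf3 at 1.38 and Lgr5 at 0.334 CPM per kb. The metabolic genes thus stood above the genes of the pathway itself, and Lgr5 was far below the rest. Control libraries of neighbours in this order overlapped for Rnf43 and Axin2, for Nkd1 and Sp5, for Sp5 and Tbx3 and for Tbx3 and Znrf3. In Nnmt LKO the means of Lhpp and Slc1a2, at 17.4 and 15.4 CPM per kb, came close and their libraries overlapped. Summed over the 10 targets, the level was 365, 401, 409 and 346 CPM in Nnmt LKO libraries a to d and 332, 315, 367 and 371 CPM in control libraries a to d. Slc1a2 supplied 47.4% of these sums.

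The 10 targets were uneven across libraries. Relative to the control mean of each gene, the median log2 level of the 10 targets was -0.24, 0.01, -0.27 and -0.24 in Nnmt LKO libraries a to d and 0.11, -0.02, -0.04 and -0.02 in control libraries a to d. Library b of Nnmt LKO was thus among the controls, and the other 3 libraries of that genotype were below them. In library b, Tbx3 and Sp5 were at their highest of all 8 libraries.

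Upstream of these targets are the ligands. Wnt2, Wnt9b and the R-spondin gene Rspo3 are the ones known from central vein endothelium. Wnt9b was at 4.78, 3.94, 2.65 and 3.45 CPM in Nnmt LKO libraries a to d and at 2.32, 2.35, 1.44 and 1.84 CPM in control libraries a to d. All Nnmt LKO libraries were above all controls, and the gene had 125 to 437 counts per library. Between genotypes, the log2 fold change was 0.90 (SE 0.24, 95% interval 0.38 to 1.42), and the edgeR adjusted p was 0.131 (0.00302 unadjusted). With DESeq2, Wnt9b had an adjusted p of 0.0163, and the range over alternatives was 0.0163 to 0.303. Rspo3 was at 7.18, 4.71, 5.94 and 7.25 CPM in Nnmt LKO libraries a to d and at 4.49, 3.82, 5.07 and 5.19 CPM in control libraries a to d. Here library b of Nnmt LKO fell among the controls and the other 3 were above them, with a log2 fold change of 0.43 (SE 0.18, edgeR adjusted p = 0.348), and of 0.36 without library a of Nnmt LKO. Wnt2 was at 6.31 ± 0.502 CPM in Nnmt LKO and 5.56 ± 1.90 CPM in control (SD, n = 4 each), with a log2 fold change of 0.18 (edgeR adjusted p = 0.781) and overlapping libraries. Of 23 genes for Wnt ligands and R-spondins, 12 were tested and 7 had 0 counts in every library. Of the 12, 2 (16.7%) had an unadjusted p under 0.05, both higher in Nnmt LKO, against 12.6% of all tested genes. The median log2 fold change of the 12 was 0.24, next to 0.02 over all tested genes. At an adjusted p under 0.05, edgeR and limma called 0 of the 12 and DESeq2 called 1, Wnt9b. Without library a or d of Nnmt LKO or library a or b of the controls, Wnt9b alone of the 12 had an unadjusted p under 0.05. The median was 0.13 without library a of Nnmt LKO, 0.42 without library c of the controls and 0.12 without their library d.

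The estimates for Wnt9b, Rspo3 and Wnt2 were above 0, as were those for the targets Slc1a2 (0.52), Znrf3 (0.17) and Nkd1 (0.08). For the other 7 targets the estimates were below 0, with intervals that left out 0 for Axin2 and Lhpp only. No test of ligands against targets was made.

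Of 17 receptor and co-receptor genes, 14 were tested. An unadjusted p under 0.05 was reached by 12.6% of all tested genes and by 1 of these 14 (7.14%). This was Fzd4, a Frizzled receptor gene on chromosome 7, at 8.59, 11.4, 9.25 and 7.96 CPM in Nnmt LKO libraries a to d and at 14.9, 13.2, 10.8 and 16.1 CPM in control libraries a to d. Only library b of Nnmt LKO and library c of the controls crossed. The log2 fold change of Fzd4 was -0.56 (SE 0.16, edgeR adjusted p = 0.165, 0.0471 in DESeq2 and from 0.0471 to 0.492 over the alternatives). Its 23 tested neighbours within 5 Mb had a median of -0.17, and 4.35% of them lay below it. Lgr4, the R-spondin receptor related to Lgr5, was at 19.4 ± 1.38 CPM in Nnmt LKO and 18.6 ± 2.96 CPM in control (SD, n = 4 each), with a log2 fold change of 0.06 (95% interval -0.22 to 0.34). The median over the 14 genes was 0.06. At an adjusted p under 0.05, edgeR and limma called 0 of them and DESeq2 called 1, Fzd4. The median was -0.02 without library a of Nnmt LKO, where Fzd1 was also lower at an unadjusted p under 0.05. Fzd8 was added in the same way without library b of Nnmt LKO and without library d of the controls.

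Secreted inhibitors were mostly too low to test, with 4 of 13 tested. Sfrp5, which encodes a protein that binds Wnt ligands, had 20, 23, 30 and 0 counts in Nnmt LKO libraries a to d and 60, 45, 61 and 61 counts in control libraries a to d. All Nnmt LKO libraries were below all controls, at a level under 1 CPM throughout. Its log2 fold change was -1.66 (SE 0.70, 95% interval -3.20 to -0.11, edgeR adjusted p = 0.36). Dkk3, a divergent member of the Dickkopf family, had a log2 fold change of 0.51 (SE 0.21, edgeR adjusted p = 0.35) with overlapping libraries, and of 0.29 without library a of Nnmt LKO. Dkk3 lies on chromosome 7, where its 48 tested neighbours within 5 Mb had a median of -0.22, with 91.7% of them below it. By edgeR, DESeq2 and limma, 0 of the 4 passed an adjusted p of 0.05, and by edgeR 2 had an unadjusted p under 0.05. That count was 0 without library a or b of Nnmt LKO or library a, b or c of the controls. Without library c of Nnmt LKO it was 3, with Sfrp1 added, and without library d of the controls it was 2, Dkk3 and Sfrp1. The median of the 4 genes was 0.39, and 0.04 without library a of Nnmt LKO.

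Inside the cell, the intervals of Ctnnb1, Apc and Tcf7l2 included 0. Ctnnb1, which encodes beta-catenin, was at 191, 157, 152 and 168 CPM in Nnmt LKO libraries a to d and at 155, 158, 187 and 199 CPM in control libraries a to d. The groups covered nearly the same range, and the log2 fold change was -0.06 (95% interval -0.34 to 0.21). For Apc, a scaffold of the destruction complex, it was 0.21 (95% interval -0.19 to 0.61) and for the TCF factor gene Tcf7l2 0.02 (95% interval -0.40 to 0.43). Of the 22 intracellular genes tested, 3 (13.6%) had an unadjusted p under 0.05, near the 12.6% of all tested genes. Ctnnbip1, the gene of an inhibitor that keeps beta-catenin from TCF, had a log2 fold change of -0.40 (SE 0.13, edgeR adjusted p = 0.231). The nuclear co-factor genes Pygo1 and Bcl9 had log2 fold changes of 1.23 (SE 0.45, adjusted p = 0.28) and 0.32 (SE 0.14, edgeR adjusted p = 0.388). Pygo1 was scarce, with 13 to 62 counts per library. The median over the 22 genes was 0.00, and edgeR, DESeq2 and limma called 0 of them at an adjusted p under 0.05. Without library a of Nnmt LKO the median was also 0.00, and of the 3 genes at an unadjusted p under 0.05 Pygo1 was replaced by Dvl2, which was lower. Without library b of Nnmt LKO the count was 1, Ctnnbip1, and without other single libraries it was 2 to 4.

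**Figure D3:**
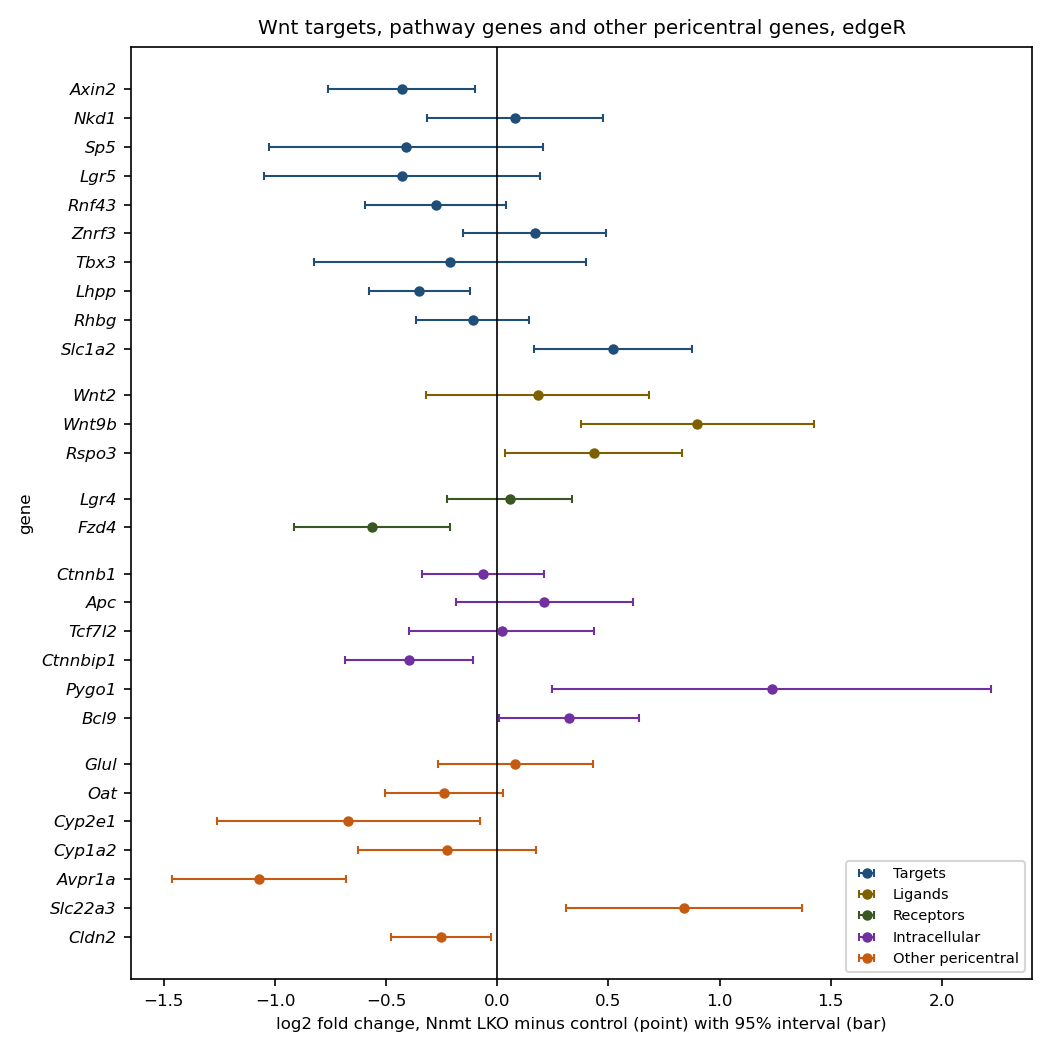
Log2 fold change (Nnmt LKO minus control, horizontal axis) with its 95% interval from edgeR's test, 4 libraries per genotype, for the 10 targets and other genes of the pathway and the pericentral zone (vertical axis), coloured by role in the pathway. The intervals of Axin2, Lhpp, Slc1a2, Wnt9b, Rspo3, Fzd4, Ctnnbip1, Pygo1, Bcl9, Cyp2e1, Avpr1a, Slc22a3 and Cldn2 leave out 0, and those of the other genes drawn include it.

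General Wnt targets known from other tissues, such as Notum, Lef1 and Myc, gave no common direction. Of 10 tested, 7 were above 0, and the median was 0.15. When library a of Nnmt LKO was left out, 3 were above and 7 below 0, with a median of -0.14, and without library d of the controls 4 were above 0, with a median of -0.09. The cell cycle gene Ccnd1 on chromosome 7 had an unadjusted p under 0.05, at 249, 327, 374 and 297 CPM in Nnmt LKO libraries a to d and 463, 543, 414 and 310 CPM in control libraries a to d. Library d of the controls fell among the Nnmt LKO libraries. Its log2 fold change was -0.47 (SE 0.18, edgeR adjusted p = 0.311), where 91 tested neighbours within 5 Mb had a median of -0.34, with 37.4% of them below it. Without library a or d of Nnmt LKO or library a or b of the controls, 0 of the 10 had an unadjusted p under 0.05, and without library d of the controls Notum joined Ccnd1, also lower. By edgeR, DESeq2 and limma, 0 of the 10 passed an adjusted p of 0.05.

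Other pericentral genes give a second view of the zone in which these targets are active. Glul, the glutamine synthetase gene that marks the hepatocytes next to the central vein, was at 1547, 1946, 1704 and 1534 CPM in Nnmt LKO libraries a to d and at 1521, 1264, 1878 and 1698 CPM in control libraries a to d. The groups overlapped over most of their range, and the log2 fold change was 0.08 (SE 0.16, 95% interval -0.27 to 0.43). Oat, the ornithine aminotransferase gene next to Lhpp, was at 761, 823, 686 and 803 CPM in Nnmt LKO libraries a to d and at 894, 842, 906 and 985 CPM in control libraries a to d. Each Nnmt LKO library was below each control, with a log2 fold change of -0.24 (SE 0.12, edgeR adjusted p = 0.443).

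Cyp2e1, a cytochrome P450 gene that also lies on chromosome 7, was at 4695, 9023, 9654 and 7679 CPM in Nnmt LKO libraries a to d and at 13326, 17202, 9599 and 9299 CPM in control libraries a to d. Library a of Nnmt LKO was the lowest and libraries a and b of the controls were the highest, while the others met near the same level. Its log2 fold change was -0.67 (SE 0.27, edgeR adjusted p = 0.328), and the 102 tested neighbours of Cyp2e1 within 5 Mb had a median of -0.32, with 6.86% of them below it. For Cyp1a2 it was -0.23 (95% interval -0.63 to 0.17).

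Among all 20 other pericentral genes, each of which was tested, 10 were above and 10 below 0, and the median log2 fold change was 0.03. At an unadjusted p under 0.05, 1 was higher and 3 lower, and edgeR called 1 at an adjusted p under 0.05, the vasopressin receptor gene Avpr1a. It was at 11.9, 15.4, 12.7 and 12.1 CPM in Nnmt LKO libraries a to d and at 21.3, 25.8, 24.4 and 38.3 CPM in control libraries a to d, without overlap. Avpr1a fell by 1.07 on the log2 scale (SE 0.18, edgeR adjusted p = 0.0456), and its adjusted p ranged from 2.04e-05 to 0.157 over the alternatives. The call was lost without library b, c or d of Nnmt LKO or library a, b or c of the controls (edgeR adjusted p from 0.0837 to 0.157), with scaling by library size (0.0896), without the filter on low counts (0.0905) and in limma (0.0542). The log2 fold change in these alternatives lay between -1.16 and -1.04. Slc22a3, an organic cation transporter gene, had a log2 fold change of 0.84 (SE 0.24, edgeR adjusted p = 0.169 and 0.0295 in DESeq2, over a range from 0.0295 to 0.455). For Cldn2, a tight junction gene, it was -0.25 (SE 0.10, edgeR adjusted p = 0.329). Summed over the 20 genes, the level was 12048, 18357, 19308 and 16965 CPM in Nnmt LKO libraries a to d and 22778, 26165, 17785 and 17617 CPM in control libraries a to d, of which Cyp2e1 supplied 53.3%.

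The counts for these 20 genes depended on library a of Nnmt LKO. Without it 5 were higher and 3 lower at an unadjusted p under 0.05, and the median was 0.06. The 4 genes added were the cytochrome P450 genes Cyp2c37, Cyp2c29 and Cyp2c50 and the regucalcin gene Rgn, all higher in Nnmt LKO. In that fit edgeR called 2, Avpr1a (adjusted p = 0.0377) and Cyp2c37 (log2 fold change 1.03, edgeR adjusted p = 0.0366), the latter at 0.73 with all libraries (edgeR adjusted p = 0.45). Of the 15291 genes tested with all libraries, edgeR called 148 without library a. For Cyp2c29 and Cyp2c50 the log2 fold changes without library a were 1.02 and 0.92, and 0.71 and 0.64 with it. Without library b of the controls 3 were higher (Cyp2c37, Cyp2c50 and Slc22a3) and 1 was lower, and without any other single library 1 was higher and 1 to 3 were lower.

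At the other end of the lobule, 15 periportal genes were tested, with a median of 0.05. Of these 2 were higher and 1 was lower in Nnmt LKO at an unadjusted p under 0.05. Etnppl, which encodes a phospholyase of phosphoethanolamine, had a log2 fold change of 1.02 (SE 0.33, edgeR adjusted p = 0.216). In the same test, Pck1, the gene of a gluconeogenic enzyme, was at 0.42 (SE 0.19, adjusted p = 0.381) and Ctsc, the cathepsin C gene on chromosome 7, at -0.28 (SE 0.11, adjusted p = 0.305). At an adjusted p under 0.05, edgeR and limma called 0 of the 15 and DESeq2 called 1, Etnppl. Without library a of Nnmt LKO the periportal median was 0.18, where that over all tested genes was 0.00. In that fit edgeR called 1, Etnppl, at a log2 fold change of 1.28 (edgeR adjusted p = 0.0302), beside 148 of the 15291 genes tested with all libraries. The periportal median ran from -0.08, without library c of the controls, to 0.18 over the fits that left out 1 library. No test between the zones was made.

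The Wnt ligands and targets come from different cells, so markers of each cell type were set beside them. The 12 endothelial markers, the lineage of the ligand-secreting cells, had a median log2 fold change of -0.01 and ranged from -0.19 to 0.19. They summed to 440, 480, 453 and 409 CPM in Nnmt LKO libraries a to d and 404, 484, 342 and 591 CPM in control libraries a to d. By unadjusted p under 0.05 in edgeR, and by adjusted p in edgeR, DESeq2 and limma, 0 of the 12 differed, and Eng, the most abundant, had a log2 fold change of -0.05. Without library d of the controls the median was 0.17, with 10 of the 12 above 0 and Fcgr2b at an unadjusted p under 0.05, and without their library c it was -0.15, while it was -0.01 without library a of Nnmt LKO. The sums of endothelial markers thus overlapped between the genotypes. The part of endothelial cells in the higher estimates of Wnt9b and Rspo3 was not tested.

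The sums of hepatocyte markers also overlapped. The 7 in the table summed to 61862, 95015, 108332 and 107046 CPM in Nnmt LKO libraries a to d and 96619, 110815, 76321 and 88297 CPM in control libraries a to d, with a median of -0.01. Library a of Nnmt LKO had the lowest sum, and Alb, the albumin gene, supplied 79.9%. Of single markers 1, Apob, was higher in each Nnmt LKO library than in each control, and it was named after its values were seen. In edgeR, 0 of the 7 had an unadjusted p under 0.05, and none passed an adjusted p of 0.05 in edgeR, DESeq2 or limma. When library a of Nnmt LKO was left out the median was 0.11, and 2, Apob and Hnf4a, were higher at an unadjusted p under 0.05. Without any other single library 0 or 1 had an unadjusted p under 0.05 (Fgb, Serpina1a or Apob).

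Of the 10 stellate cell markers, all 10 had a log2 fold change above 0, with a median of 0.37, and 4 (Rgs5, Dcn, Lrat and Reln) had an unadjusted p under 0.05. They summed to 975, 567, 512 and 565 CPM in Nnmt LKO libraries a to d and 393, 410, 605 and 592 CPM in control libraries a to d. Library a of Nnmt LKO was far above the rest, and the other libraries overlapped. Dcn, the most abundant at 37.4% of the sum, had a log2 fold change of 0.41 (SE 0.16, edgeR adjusted p = 0.32). At an adjusted p under 0.05, edgeR and limma called 0 of the 10 and DESeq2 called 1, Rgs5. The common direction rested on library a of Nnmt LKO. Without it 4 of the 10 were above 0 and 6 below, the median was -0.13, and 1, Rgs5, had an unadjusted p under 0.05, with a log2 fold change of 0.70. For Dcn it was then 0.34. Without any other single library 8 to 10 were above 0 and 1 to 3 had an unadjusted p under 0.05, Rgs5 in each fit. Rgs5, Lrat and Reln were chosen for naming after their values were seen.

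The other marker lists also had medians above 0, of 0.25 for 9 macrophage markers, 0.43 for 8 cholangiocyte markers and 0.35 for 10 lymphocyte and neutrophil markers. Macrophage markers summed to 1341, 848, 801 and 837 CPM in Nnmt LKO libraries a to d and 606, 730, 820 and 1236 CPM in control libraries a to d, led by Lyz2. Library a of Nnmt LKO and library d of the controls were the highest. Cholangiocyte markers summed to 301, 117, 107 and 191 CPM in Nnmt LKO libraries a to d and 71.4, 83.8, 187 and 113 CPM in control libraries a to d, led by Spp1. Lymphocyte and neutrophil markers summed to 42.0, 26.1, 18.1 and 24.8 CPM in Nnmt LKO libraries a to d and 16.9, 17.9, 23.1 and 34.1 CPM in control libraries a to d, led by Ptprc. In each of these lists library a of Nnmt LKO had the highest sum and the rest overlapped. Of the macrophage markers 0, and of the lymphocyte and neutrophil markers 1 (Cd3g, higher), had an unadjusted p under 0.05 in edgeR. At an adjusted p under 0.05, edgeR and limma called 0 in these 3 lists and DESeq2 called 1, Cd3g, which was also named after its value was seen. Without library a of Nnmt LKO the medians were 0.12 for the macrophage markers, with 5 above and 4 below 0 where 8 and 1 had been, 0.18 for the cholangiocyte markers and 0.19 for the lymphocyte and neutrophil markers. The macrophage median was 0.39 without library d of the controls and 0.15 without their library a or c. Leaving out 1 control library brought 1 to 2 macrophage markers to an unadjusted p under 0.05, all higher (Marco without library a or c, Timd4 without b, Cd5l and Vsig4 without d), and Cd79a joined Cd3g without library c. In none of the marker lists was a gene at 0 in every library. The part of these cell types in the values of the Wnt targets was not tested.

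The 10 targets are spread over the genome. Axin2, Rnf43 and Znrf3 lie on chromosome 11, Sp5 and Slc1a2 on chromosome 2, and Lgr5, Tbx3, Nkd1, Lhpp and Rhbg on chromosomes 10, 5, 8, 7 and 3. For Axin2 (chr11:108920349-108950783, plus strand) the 73 tested genes within 5 Mb had a median log2 fold change of 0.04, and 5.48% of them lay below it. For Slc1a2 (chr2:102658659-102790784, plus strand) the 36 tested neighbours had a median of 0.04, and 94.4% of them lay below it. Lgr5, Sp5, Tbx3 and Rnf43, whose libraries overlapped between genotypes, had 2.56%, 8.16%, 9.93% and 11.2% of their neighbours below them. A place toward the edge was thus not particular to Axin2 and Slc1a2. For Lhpp, Rhbg, Nkd1 and Znrf3 the shares were 38.2%, 40.3%, 70.4% and 74.1%.

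Some targets overlap another annotated gene, and the counting is not stated to use strand. Lhpp lies within the span of Fgfr2 on the other strand, which was at 45.6 CPM in Nnmt LKO and 45.9 CPM in control on average, with a log2 fold change of -0.01. Gm15582 inside Lhpp, also on the other strand, was at 0.0959 and 0.172 CPM. Rnf43 spans 1110028F11Rik on its own strand, at 2.64 and 3.58 CPM. The antisense neighbours of Axin2, Lgr5, Tbx3 and Slc1a2 in the table were at 0.0661 CPM or less on average in both genotypes.

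Since TCF/LEF factors bind DNA at sites with the core CTTTGA, the 250 bases upstream of transcript starts were searched for these letters on both strands (CTTTGA or TCAAAG). Only this spelling was searched and is marked below, so a window with 0 matches may hold sites of another spelling, such as CTTTGT. RefSeq promoters (GRCm38.p6) were matched for 5 of the 10 targets, Axin2, Nkd1, Rnf43, Slc1a2 and Sp5. Of 32851 such windows over all genes, 13.8% held the core at least once and 1.37% at least 2 times. Sp5 and Slc1a2 each held 2 matches, and the windows of Axin2, Nkd1 and Rnf43 held 0. The windows of Sp5 (chr2:70474673-70474922, plus strand), Slc1a2 (chr2:102706188-102706437, plus strand) and Axin2 (chr11:108920099-108920348, plus strand) are printed 5′ to 3′ because they contrast 2 genes with the core and 1 without, with the core in capitals.
Sp5: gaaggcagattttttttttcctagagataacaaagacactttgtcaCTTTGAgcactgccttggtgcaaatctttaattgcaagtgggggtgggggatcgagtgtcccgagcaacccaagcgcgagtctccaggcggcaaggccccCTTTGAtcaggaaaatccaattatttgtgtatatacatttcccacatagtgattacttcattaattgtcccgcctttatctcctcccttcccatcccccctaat
Slc1a2: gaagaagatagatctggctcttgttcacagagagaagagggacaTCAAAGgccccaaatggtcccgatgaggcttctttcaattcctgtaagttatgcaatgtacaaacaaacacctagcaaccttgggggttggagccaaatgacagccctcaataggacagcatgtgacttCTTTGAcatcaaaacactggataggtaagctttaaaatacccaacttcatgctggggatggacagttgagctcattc
Axin2: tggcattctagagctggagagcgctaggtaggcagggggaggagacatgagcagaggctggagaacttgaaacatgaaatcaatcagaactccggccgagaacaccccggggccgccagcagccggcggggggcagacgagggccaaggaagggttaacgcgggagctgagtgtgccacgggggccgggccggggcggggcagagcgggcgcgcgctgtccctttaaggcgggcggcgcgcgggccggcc
In Sp5 both matches read CTTTGA, starting 204 and 104 bases before the transcript start. In Slc1a2 the first reads TCAAAG, 206 bases before the start, and the second CTTTGA, 77 bases before it. The Slc1a2 window lies inside the gene's longest annotated span, ahead of an internal transcript start. Its second match falls in a stretch of 29 annotated exon bases within the window. The Nkd1 window also lies inside the span of its gene, and the bases after it were not found in a GENCODE transcript of Nkd1. Of the 2 Rnf43 windows, 1 lies in annotated exons over all of its 250 bases. The log2 fold changes were -0.41 for Sp5 and 0.52 for Slc1a2, and Axin2 without a match in this window was at -0.43. A match is a run of letters, and neither binding nor the use of these starts was measured in these livers.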

How the data were processed

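RNA-seq of liver from 4 Nnmt LKO mice and 4 control mice on the MCD diet was used. The authors aligned the reads with HISAT2, and the submitters' processing notes also name StringTie and the genome build mm10, without versions. They deposited whole-number counts per gene for 33212 genes, without normalization. The study's methods name a KAPA HyperPrep kit and the labels a NEBNext Ultra kit, and neither states whether the counting used strand. The 8 columns of counts are named by genotype only, so libraries were lettered by column order, and no batch is given. No pair of libraries within a genotype agreed within sampling noise (chi-square per degree of freedom from 42.2 to 263).

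Genes were kept by filterByExpr (minimum count 10), which left 15291 genes. They were normalised by TMM and tested with edgeR 4.0.16 (quasi-likelihood test) in R 4.3.3, with Benjamini-Hochberg adjustment over all tested genes, and a gene was called at an adjusted p under 0.05. DESeq2 1.42.0, limma 3.58.1 (voom), other scalings, no filter and each library left out in turn were alternatives. The tests were first tried on simulated data. Depth of 75020072 to 87934362 counts makes 3 counts equal to at most 0.04 CPM.

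Dependence on the processing was counted for a set of 46 genes. It holds the 10 targets, Nnmt, Glul, Oat, Cyp2e1, Cyp1a2, Wnt2, Wnt9b, Rspo3, Lgr4, Ctnnb1, Apc and Tcf7l2. It also holds further members of the pathway and zone lists at an unadjusted p under 0.05 (at most 6 per list). The 3 tested genes on each side of Lhpp and the most abundant gene of each marker list complete it. Other genes named in the text, such as Cyp2c37, Rgs5 and Myc, are outside this set. The targets and lists were chosen with earlier results of these data known. Positions and exon lengths are from GENCODE M21 (GRCm38), which held 15146 of the tested genes (99.1%). The identifier of Rhbg in the table was matched there by symbol. The markers Adgre1 and Tf were not used here, and the single cholangiocyte markers at an unadjusted p under 0.05, and the periportal genes at that level with a library left out, are not reported here.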

Additional observations from a re-analysis of the deposited data

Results flagged for a closer look

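The spread was examined in 96 groups of 4 libraries, for the 46 genes of the set above and 2 measures of depth in each genotype. In 4 of these groups 1 library lay far from the other 3 relative to their range, where chance gives about 1 in 20 groups. Other genes named in the text were not examined in this way. Nkd1 was at 6.82 CPM in library d of Nnmt LKO and at 11.3 to 11.9 CPM in the other 3 libraries of that genotype. Sp5 was at 5.37 CPM in library b of Nnmt LKO, compared with 2.26 to 2.70 CPM in the others. The macrophage gene Lyz2 was at 527 CPM in library a of Nnmt LKO and at 194 to 216 CPM in the others. The TMM factor of that same library a was 1.21, and those of the other 3 were 0.952 to 0.977. No cause of these distances was tested.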

How the results depend on the processing

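The count of genes called was 49 (28 higher, 21 lower in Nnmt LKO) and moved with nearly every choice. It was 30 with DESeq2's size factors, 22 with scaling by library size only (19 higher, 3 lower), 513 with DESeq2's test, 30 with limma voom, 8 without a filter on low counts, 191 at an adjusted p under 0.1 and 6 to 149 with 1 library left out, the 149 without library a of Nnmt LKO. The cause was not tested, except that fewer libraries or more genes entered some fits. Scaling by library size also turned the split at an unadjusted p under 0.05 from 834 higher and 1091 lower to 818 higher and 620 lower. Of the 10 Wnt targets, 0 were called in edgeR under any scaling, without the filter, with any library left out or at an adjusted p under 0.1, and 0 in limma, while DESeq2 called 1. At an unadjusted p under 0.05 there were 3 targets, 3 to 4 with 1 library left out and 2 once Lhpp, the target on chromosome 7, was not counted. The median log2 fold change of the targets, -0.24, ran from -0.37 (without library b of Nnmt LKO) to -0.17 in those fits. Nnmt was called in DESeq2 only, at a log2 fold change of -1.28, and ran from -1.52 to -0.94 with 1 library left out.

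For 7 of the 46 genes in the set given above, the sign reversed in at least 1 alternative. Genes named outside that set were not counted, and Rgn and Myc among them also reversed. Without library a of Nnmt LKO the log2 fold change was 0.020 for Tbx3, -0.15 for Tcf7l2 and -0.38 for Lyz2. For Eng it was 0.017 with library size only. Over the fits that left out 1 library, the log2 fold change ranged from -0.52 to 0.020 for Tbx3, from -0.0026 to 0.17 for Glul, from -0.14 to 0.0034 for Ctnnb1, from -0.15 to 0.14 for Tcf7l2, from -0.12 to 0.045 for Eng, from -0.38 to 0.47 for Lyz2 and from -0.042 to 0.22 for Alb. Of the 46 genes in the set, 39 kept their sign in all alternatives that gave a value, 9 of the 10 targets among them, Tbx3 being the exception. No paired analysis was possible because the columns carry no mouse number, and the labels of the genotypes share only numbers 4 and 5. There were 4 mice per genotype, and the intervals give the range of differences consistent with each estimate. Depth limits mainly genes with few counts, such as Sfrp5, Pygo1 and Gm15582.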
